A study of Mus musculus with 4 samples.

Results

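The transcripts described here are those of 2 metallothioneins, Mt1 and Mt2, and of 7 zinc transporters, Slc30a2, Slc30a5, Slc30a7, Slc39a5, Slc39a8, Slc39a10 and Slc39a14. These 9 genes are among 22180 genes measured on Affymetrix arrays, and each was taken from its only array row whose annotation gives that single symbol. The arrays held total RNA from whole pancreas of 8-week-old mice, collected on day 5 of a course of cerulein, an agonist of the cholecystokinin receptor that over-stimulates acinar cells and injures the pancreas. Mice had received 100 µg/kg intraperitoneally in 6 injections a day on alternate days. One group was null for Ifrd1, a transcriptional co-regulator (IFRD1 null in the labels, n = 2 mice), and the other was wild type (n = 2 mice), so cerulein was common to both groups. How the null allele was made, its strain background and the sex of the mice are not given in the sources used here.

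Zinc is handled in cells by 3 kinds of protein. Metallothioneins are small cysteine-rich proteins of the cytosol that bind zinc and copper, and their genes are induced by metals through the transcription factor Mtf1, by glucocorticoids and by inflammatory cytokines. Transporters of the ZnT family, encoded by Slc30a genes, move zinc out of the cytosol into vesicles, the Golgi or the extracellular space, whereas those of the ZIP family, encoded by Slc39a genes, move zinc into the cytosol. Acinar cells secrete zinc into pancreatic juice together with digestive enzymes, so whole pancreas is a tissue of high zinc turnover.

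Levels are the deposited log2 values, and a difference is the Ifrd1 null mean minus the wild-type mean, in log2 units. Ifrd1 itself was at 6.99 and 7.09 in the null arrays, against 9.04 and 9.07 in the wild-type arrays, so each array matched its label. The groups also differed in sex-linked transcripts. Xist was at 10.2 and 9.58 in the null arrays, against 2.56 and 3.54 in those of wild type, while the Y-linked genes Uty, Kdm5d and Eif2s3y lay between 2.25 and 3.03 in the null arrays and between 5.47 and 7.29 in the wild-type arrays. In these arrays genotype and sex, as read from these genes, cannot be told apart, and this holds for every difference below. Of 19 acinar markers 15 were measured, all of them above the median of each array, as the label pancreas implies. In whole tissue, fewer cells of a type and less RNA per cell cannot be told apart either.

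Mt1 and Mt2 lie next to each other on chromosome 8, after Mt4, Mt3 and a long non-coding RNA gene in the RefSeq gene order of GRCm38.p6. The windows around their listed starts are shown because both genes followed almost the same course over the 4 arrays, and the window of Slc30a2 is shown as that of the transporter with the most motif matches. Each window runs from 250 bases before to 50 bases after a start in RefSeq (GRCm38.p6, all on the plus strand), and starts other than the listed one are not covered. Capitals mark matches to the core of the metal response element, the DNA motif that Mtf1 binds, searched as TGCACNC and TGCGCNC on both strands, 2 patterns that cannot match the same bases on one strand.

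Mt1, chr8:94178839-94179138: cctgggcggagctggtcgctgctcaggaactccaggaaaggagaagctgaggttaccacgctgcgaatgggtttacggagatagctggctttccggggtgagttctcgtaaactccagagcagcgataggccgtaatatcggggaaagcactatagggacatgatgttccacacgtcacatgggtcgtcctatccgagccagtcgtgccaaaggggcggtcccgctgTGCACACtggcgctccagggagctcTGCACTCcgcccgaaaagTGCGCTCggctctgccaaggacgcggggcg
Mt2, chr8:94172368-94172667: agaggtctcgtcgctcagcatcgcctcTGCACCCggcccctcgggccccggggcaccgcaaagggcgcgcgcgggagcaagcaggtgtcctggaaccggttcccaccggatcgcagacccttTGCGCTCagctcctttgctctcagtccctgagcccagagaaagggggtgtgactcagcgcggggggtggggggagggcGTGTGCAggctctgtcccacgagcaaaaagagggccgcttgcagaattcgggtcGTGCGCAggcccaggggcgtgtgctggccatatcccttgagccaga
Slc30a2, chr4:134343216-134343515: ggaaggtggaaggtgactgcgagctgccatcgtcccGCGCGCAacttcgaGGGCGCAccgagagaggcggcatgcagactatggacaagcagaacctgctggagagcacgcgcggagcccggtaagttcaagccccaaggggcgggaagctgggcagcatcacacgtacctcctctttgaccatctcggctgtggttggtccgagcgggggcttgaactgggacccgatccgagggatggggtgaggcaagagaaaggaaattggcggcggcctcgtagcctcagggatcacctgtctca

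The Mt2 window held 4 matches, the Mt1 window 3 and the Slc30a2 window 2. At least 1 match was present in 25.7% of all 32851 windows of this length, at least 2 in 7.11%, at least 3 in 1.97% and at least 4 in 0.517%. In the Mt1 window the matches started at bases -23, 3 and 21 relative to the listed start, and in the Mt2 window at bases -223, -128, -50 and 5. Windows were present for 8 of the 9 genes, 11 windows in all, and 6 of these held a match. Slc30a5 had 1 match, as did 1 of 2 windows each of Slc39a5 and Slc39a8, whereas Slc30a7 and both windows of Slc39a10 had none. A match is a run of letters and was not tested for binding.

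Genotype was compared with limma across all genes, with Benjamini-Hochberg adjustment over all of them and a threshold of 0.05. None of the 9 genes passed (0 of 9), and with all arrays as deposited none had an unadjusted p under 0.05 (0 of 9). The unadjusted count was 1, Slc39a14, with quantile normalization, cyclic loess, the replicate block or trend and robust eBayes. It was 3 without Ifrd1 null 1 (Slc30a7, Slc39a5 and Slc39a14, all higher in the null) and 2 without Ifrd1 null 2 (Slc39a5 and Slc39a8, both lower). Over all genes 0.00451% passed the adjusted threshold, which is 1 gene, the Y-linked Uty (limma adjusted p = 0.0206). Ifrd1 itself, with a difference of -2.02, did not pass (limma adjusted p = 0.138). Of all genes, 6.91% had an unadjusted p under 0.05. The mean was higher in the null for 6 of the 9 genes, against 47.2% of all genes, and the median difference of the 9 was 0.06, against -0.01 over all genes. The arrays of the 2 genotypes did not overlap for 1 of the 9, Slc39a14, against 35.8% of all genes. With so few arrays even large changes could miss the threshold, such as that of Xist (6.82, limma adjusted p = 0.140). A missed threshold thus does not show equal levels, and the 95% interval of each difference is given below.

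**Figure D1:**
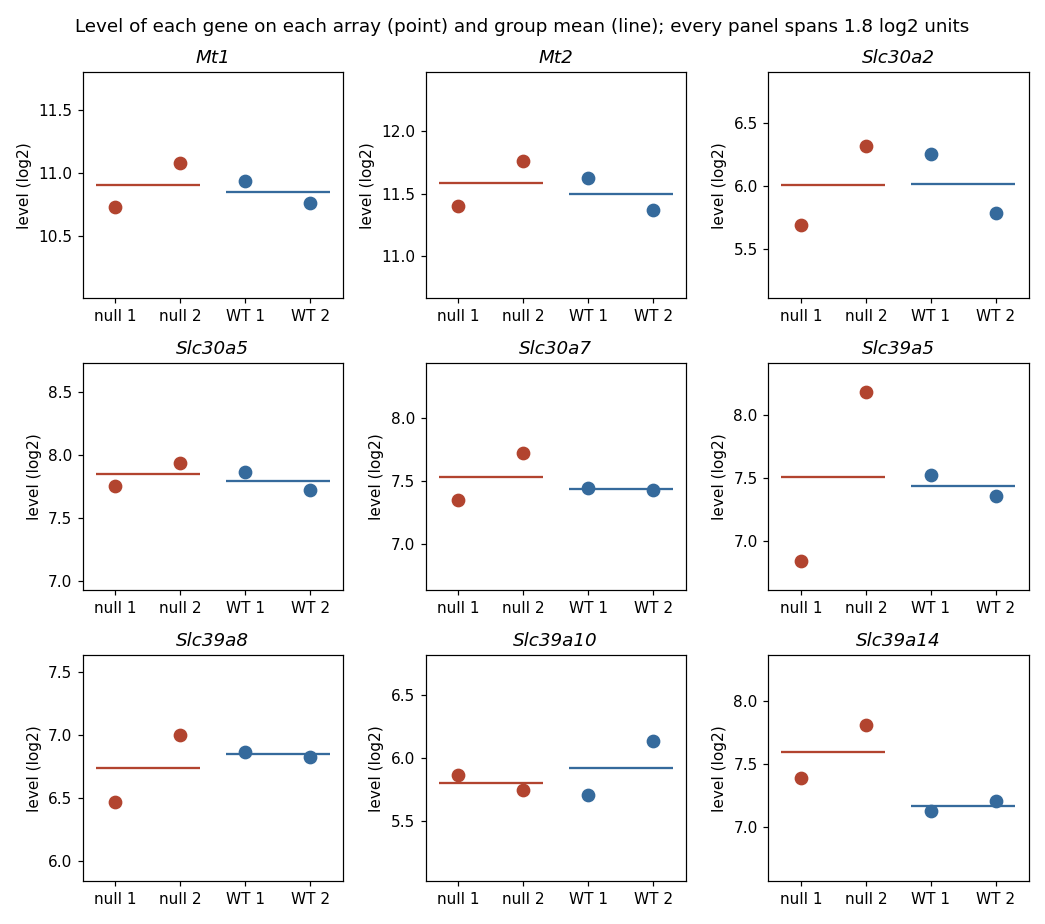
Log2 level of each gene on each array (points; Ifrd1 null in red on the left, wild type in blue on the right) with the group mean as a line, n = 2 arrays per group; levels are to be compared within a panel only. Ifrd1 null 2 carried the highest value of 8 of the 9 genes, and Slc39a14 is the gene whose null arrays both lay above both wild-type arrays.

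The metallothioneins were bright on every array, and their differences between genotypes were smaller than the standard errors of these differences. Mt1 was at 10.7 and 11.1 in Ifrd1 null 1 and 2, against 10.9 and 10.8 in wild type 1 and 2. Both wild-type values lay between those of the null, so the groups overlapped. The difference was 0.06 ± 0.16 (SE), with a 95% interval from -0.38 to 0.49 (limma adjusted p = 0.936). In folds, this interval runs from 0.767 to 1.41 times the wild-type level.

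Mt2 was at 11.4 and 11.8 in the null arrays, against 11.6 and 11.4 in the wild-type arrays. Its groups overlapped too, with the highest value in Ifrd1 null 2 and the lowest in wild type 2. The difference was 0.09 ± 0.18 (SE), with an interval from -0.39 to 0.56 (limma adjusted p = 0.907). The sign of both differences rested on single arrays. Without Ifrd1 null 2, Mt1 was at -0.12 and Mt2 at -0.09, and without wild type 2 they were at -0.03 and -0.04. Leaving out Ifrd1 null 1 gave 0.23 and 0.26, and leaving out wild type 1 gave positive differences as well.

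Both metallothioneins moved together from array to array. Relative to its own mean over the 4 arrays, Mt1 stood at -0.15 and 0.20 in the null arrays, against 0.06 and -0.11 in the wild-type arrays, and Mt2 stood at -0.14 and 0.22 in the null arrays, against 0.08 and -0.17 in the wild-type arrays. The root mean square distance between these 2 profiles was 0.031 log2 units over 4 arrays, which placed Mt2 16th nearest to Mt1 of 11089 genes with a mean above the median. The probes of each row are not given in the sources used here, and cross-hybridization between such similar transcripts was not tested. The 5 nearest genes were Dtnb, Gm9776, Ttpa, Angel1 and Corin, at distances from 0.014 to 0.017. With only 4 arrays, this list is a description. Among the transporters, Slc30a7 (0.060) and Slc30a5 (0.061) were nearest, and Slc39a5 was the farthest (0.352).

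Of the zinc exporters, Slc30a2 encodes ZnT2, which loads zinc into the secretory granules of acinar and mammary cells. It was at 5.69 and 6.32 in the null arrays, against 6.25 and 5.78 in the wild-type arrays. Each genotype thus had 1 high and 1 low array, and the groups overlapped almost completely. The difference was -0.01 ± 0.28 (SE), with an interval from -0.77 to 0.74 (limma adjusted p = 0.995). Its sign turned with quantile normalization (0.02) and with cyclic loess (0.04), and ran from -0.33 without Ifrd1 null 2 to 0.30 without Ifrd1 null 1.

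Slc30a5 and Slc30a7 encode ZnT5 and ZnT7, which supply zinc to enzymes in the early secretory pathway, such as alkaline phosphatase. Slc30a5 was at 7.75 and 7.93 in the null arrays, against 7.86 and 7.72 in the wild-type arrays. Its difference was 0.05 ± 0.12 (SE), and its interval, from -0.28 to 0.39, was the narrowest of the 9 genes. Slc30a7 was at 7.35 and 7.72 in the null arrays, against 7.45 and 7.43 in the wild-type arrays. The wild-type arrays nearly coincided and lay between the 2 null arrays. The difference of Slc30a7 was 0.10 ± 0.16 (SE), with an interval from -0.33 to 0.52. The limma adjusted p was 0.921 for Slc30a5 and 0.883 for Slc30a7. Without Ifrd1 null 2 both differences were below 0, at -0.04 and -0.09, and that of Slc30a5 was at -0.02 without wild type 2.

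Of the zinc importers, Slc39a14 stood apart from the other 8 genes in its order of arrays. It encodes ZIP14, a carrier of zinc, manganese and non-transferrin-bound iron that is induced in liver by interleukin 6. Slc39a14 was at 7.39 and 7.81 in the null arrays, against 7.13 and 7.20 in the wild-type arrays. Both null arrays lay above both wild-type arrays, by 0.19 or more. Such an order was not rare. The arrays of the genotypes did not overlap, in either direction, for 35.8% of all genes, and the null was the higher group for 3573 of 22180. The group means were 7.60 ± 0.29 in the null and 7.17 ± 0.05 in the wild type (SD, n = 2 each), a 1.35-fold difference. In log2 units it was 0.43 ± 0.17 (SE), with an interval from -0.03 to 0.90, and it did not pass (limma adjusted p = 0.722, unadjusted p = 0.0616). It was positive under each of the 12 alternatives, from 0.22 without Ifrd1 null 2 to 0.64 without Ifrd1 null 1. Only the normalizations could have turned this sign, and with them the difference ran from 0.38 to 0.52. Leaving out an array could not turn it, because the groups did not overlap, and the remaining settings left the difference at 0.43. With all arrays kept, the limma adjusted p under the alternatives ran from 0.634 to 0.891. The row gives 1 value for a gene known to make alternative transcripts, which were not separated here.

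Slc39a5 encodes ZIP5, an importer of the basolateral membrane of acinar cells and enterocytes. It was at 6.84 and 8.18 in the null arrays, against 7.52 and 7.35 in the wild-type arrays. The null arrays lay on either side of the wild-type arrays, 1.34 log2 units apart, a gap at percentile 99.6 of those of all genes. The wild-type arrays were 0.17 apart. The difference between genotypes was 0.07 ± 0.47 (SE), with an interval from -1.18 to 1.32 (limma adjusted p = 0.974). In folds, this interval runs from 0.442 to 2.5 times the wild-type level. Of 12 intestinal epithelium markers 10 were higher in wild type 1 than in wild type 2. Between genotypes 7 of the 12 were higher in the null and 5 lower, with a median difference of 0.004. Of all genes 47.2% were higher. The 2 markers named next are among the lower ones. Agr2 was at 3.47 and 3.04 in the null arrays, against 6.06 and 4.0 in the wild-type arrays, and Vil1 at 4.02 and 4.38 in the null arrays, against 5.46 and 4.88 in the wild-type arrays (both chosen after their values were seen). The summed linear signal of the 12 was 1649 and 2054 in the null arrays, against 1810 and 1636 in the wild-type arrays, but Anpep alone made up 86.7% to 92.8% of it, and 10 of the 12 lay below the array median on at least 1 array. Without wild type 1 the difference of Slc39a5 was 0.16, and the part of intestinal transcripts in its level was not tested. Without Ifrd1 null 2 the difference was -0.60, without Ifrd1 null 1 it was 0.74, and without wild type 2 it was -0.01.

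Slc39a8 encodes ZIP8, an importer of zinc and manganese that NF-kB induces in immune cells. It was at 6.47 and 7.0 in the null arrays, against 6.87 and 6.83 in the wild-type arrays. Ifrd1 null 1 was the low array, and the wild-type arrays nearly coincided. The difference was -0.11 ± 0.20 (SE), with an interval from -0.66 to 0.44 (limma adjusted p = 0.894), and it was 0.15 without Ifrd1 null 1.

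Slc39a10 encodes ZIP10, an importer of the plasma membrane with a known role in B cells. It was at 5.86 and 5.74 in the null arrays, against 5.71 and 6.13 in the wild-type arrays. Wild type 2 was the high array, and the other 3 lay within 0.16 of each other. The difference was -0.12 ± 0.18 (SE), with an interval from -0.59 to 0.36 (limma adjusted p = 0.874), and it was 0.10 without wild type 2.

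**Figure D2:**
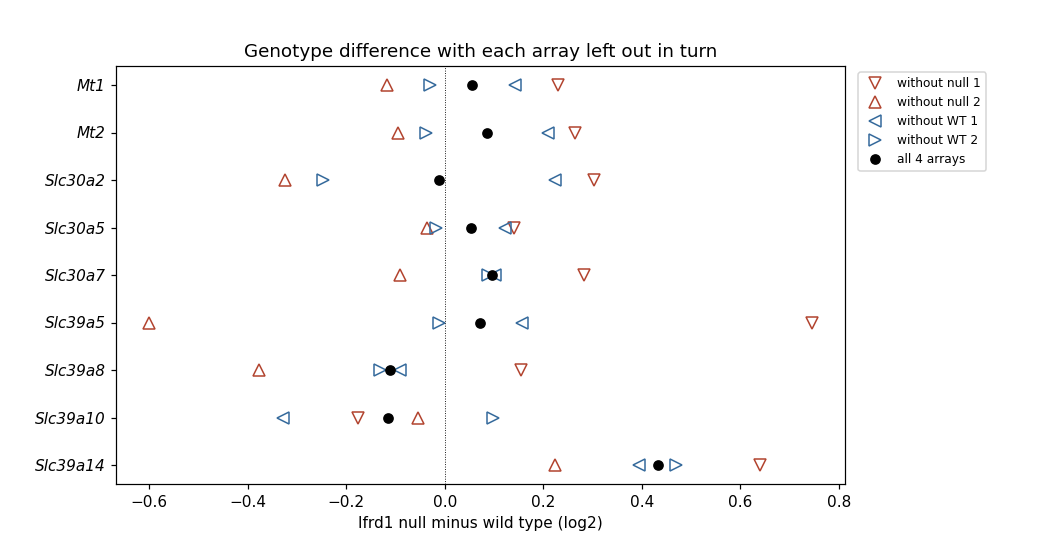
Difference between Ifrd1 null and wild type (log2, horizontal axis) for each gene with all 4 arrays (black) and with 1 array left out (open triangles; red for a null array, blue for a wild-type array). Slc39a14 is the gene whose 5 values all lay above 0, which follows from its groups not overlapping. Slc39a5 had the widest range, from -0.60 to 0.74.

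The null arrays differed from each other in most of these genes. With 1 array per mouse, a difference between animals and one between preparations of the arrays cannot be told apart. The absolute gap between the null arrays had a median of 0.37 over the 9 genes and 0.17 over all genes, that between the wild-type arrays a median of 0.17 and 0.14, and the absolute difference between genotypes a median of 0.09 and 0.13. Ifrd1 null 2 exceeded Ifrd1 null 1 for 8 of the 9 genes, against 50% of all genes, with Slc39a10 as the exception. It was the highest of the 4 arrays for 8 genes, against 26.6% of all genes. The full order Ifrd1 null 2, wild type 1, wild type 2, Ifrd1 null 1 was shared by 5 genes, against 4.71% of all genes, and these were Mt1, Slc30a2, Slc30a7, Slc39a5 and Slc39a8. This order was picked out after the values were seen. With cyclic loess 3 genes showed it, and with quantile normalization 5.

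Markers of acinar cells differed between the null arrays in the same direction. All 15 measured acinar markers were higher in Ifrd1 null 2 than in Ifrd1 null 1, with a median gap of 0.31, and their summed linear signal was 71250 and 93965 in null arrays 1 and 2 and 79479 and 78049 in wild-type arrays 1 and 2. Between the wild-type arrays the acinar list had a median gap of -0.0016 (wild type 1 minus 2), with 7 of 15 higher in wild type 1, whereas 7 of the 9 zinc genes were higher in wild type 1. Between the null arrays, 4 other lists ran the opposite way throughout: 0 of 10 macrophage, 0 of 10 stellate and fibroblast, 0 of 5 B and plasma cell and 0 of 6 adipocyte markers were higher in Ifrd1 null 2. Of T and NK cell markers 1 of 8 was higher there, of duct markers 2 of 8, of endothelial markers 2 of 6 (median gap -0.02), of islet markers 6 of 9 (median gap 0.07) and of intestinal epithelium markers 8 of 12 (median gap 0.15). The summed signal of the macrophage list was 5914 and 3770 in the null arrays, against 5114 and 5544 in the wild-type arrays. For stellate cells and fibroblasts it was 15389 and 10663 in the null arrays, against 14345 and 13960 in the wild-type arrays. For B and plasma cells it was 637 and 148 in the null arrays, against 257 and 245 in the wild-type arrays, and for adipocytes it was 786 and 289 in the null arrays, against 357 and 469 in the wild-type arrays. No marker was at 0 on this log scale, which does not show signal above background. Y-linked Uty, for example, read 2.25 and 2.36 in the null arrays. Below the array median on at least 1 array were 5 of 8 T and NK cell markers, 1 of 5 B and plasma cell markers and 1 of 6 adipocyte markers. The part of these cell types in the levels of the zinc genes was not tested.

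**Figure D3:**
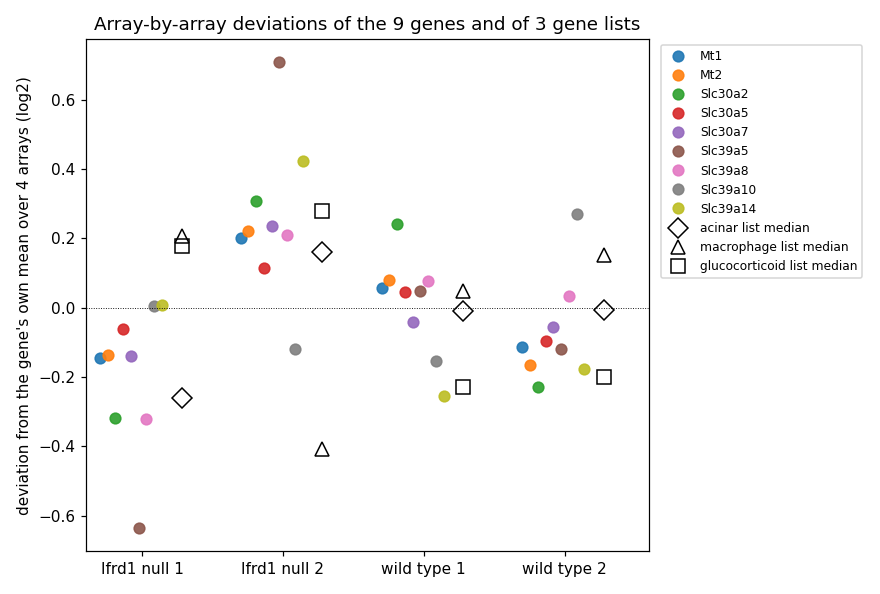
Deviation of each gene from its own mean over the 4 arrays (log2, vertical axis; coloured points) and the median deviation of the acinar, macrophage and glucocorticoid lists (open symbols), by array; points are shifted sideways for legibility. In Ifrd1 null 2 the points of 8 genes and the acinar median (0.16) lay above 0 and the macrophage median (-0.41) below it, while in Ifrd1 null 1 the acinar median was -0.26.

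Related genes of the zinc system were compared in the same fit. Of 20 further genes, which are ZnT, ZIP and metallothionein genes and Mtf1, 18 were measured, since Slc30a1 and Slc30a10 share their rows with a second symbol. None passed (0 of 18), 8 were higher and 10 lower in the null, against 47.2% of all genes higher, and the arrays of the genotypes did not overlap for 6, against 35.8% of all genes. No related gene had an unadjusted p under 0.05 (0 of 18). Among these related genes, 7 of 10 ZIP genes were below 0, with a median of -0.07, and 3 of 5 ZnT genes, with a median of -0.18. These counts leave out the 7 transporters described above, of which Slc30a5, Slc30a7, Slc39a5 and Slc39a14 were higher and Slc30a2, Slc39a8 and Slc39a10 lower.

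Slc30a8, which encodes the ZnT8 of insulin granules in beta cells, was at 6.54 and 6.66 in the null arrays, against 6.98 and 6.77 in the wild-type arrays. Its groups did not overlap, and the difference was -0.27 ± 0.13 (SE; limma adjusted p = 0.734), the smallest unadjusted p among the related ZnT genes. Of 9 measured islet markers 7 were lower in the null (median difference -0.38), and 5 had an unadjusted p under 0.05, all lower, against 6.91% of all genes. Among them were the beta cell genes Ins2 (-0.38), Iapp (-0.65), G6pc2 (-0.74) and Slc2a2 (-0.83), none of which passed (limma adjusted p = 0.721 for each). Chga (-0.32) was also among the 5. Of the hormone genes of other islet cells, Gcg (0.24) and Sst (0.27) were higher and Ppy (-0.19) was lower. The summed signal of the list was 3240 and 3300 in the null arrays, against 3617 and 3154 in the wild-type arrays, with Gcg at 43.3% to 53.6% of it. The part of beta cells in the value of Slc30a8 was not tested. Slc39a6, which encodes ZIP6, a relative of ZIP10 that pairs with it, was at 5.87 and 5.61 in the null arrays, against 5.94 and 6.12 in the wild-type arrays, a difference of -0.29 ± 0.15 (SE; limma adjusted p = 0.746). Slc30a6 encodes ZnT6, the partner of ZnT5, and was chosen after its values were seen. It was at 6.86 and 7.16 in the null arrays, against 7.32 and 7.27 in the wild-type arrays, a difference of -0.29 ± 0.14 (SE; limma adjusted p = 0.744). Its groups did not overlap, as for 35.8% of all genes, while those of Slc30a5 did. The intervals of the differences ran from -0.67 to 0.10 for Slc30a6 and from -0.28 to 0.39 for Slc30a5. Both include 0 and they overlap, and a contrast between these genes was not tested.

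Mtf1 was at 5.80 and 5.97 in the null arrays, against 5.93 and 5.74 in the wild-type arrays. Its arrays had the same order as those of Mt2, and the difference was 0.05 ± 0.13 (SE; limma adjusted p = 0.926). Mt3 and Mt4, the metallothioneins of brain and of stratified squamous epithelium, lay below the median of all 4 arrays, where signal above background is not shown. Their differences were 0.16 ± 0.26 and 0.23 ± 0.19 (SE).

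**Figure D4:**
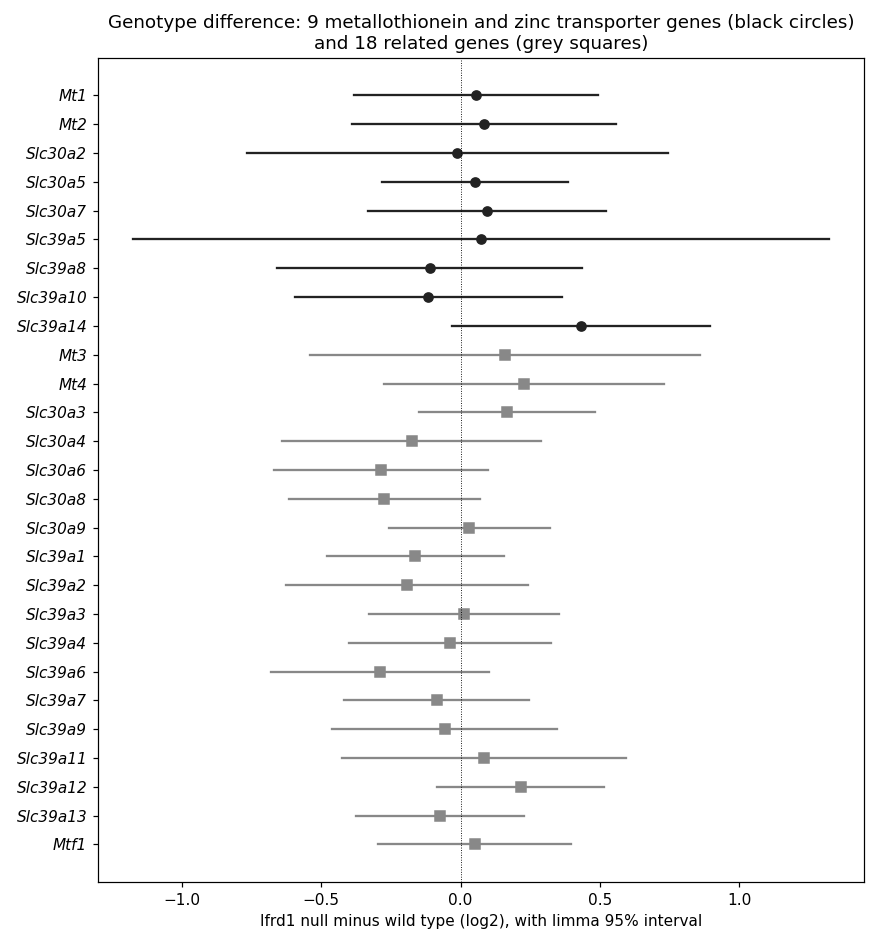
Difference between Ifrd1 null and wild type (log2, horizontal axis) with limma's 95% interval for the 9 genes (black circles) and 18 related genes (grey squares), n = 2 arrays per group. All 27 intervals include 0, and that of Slc39a14, from -0.03 to 0.90, comes closest to leaving it among the black circles.

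Lists of genes that respond to the hormones and cytokines known to induce metallothioneins were read beside them. The null mean was the higher one for 9 of 10 genes of the glucocorticoid list (median difference 0.46, against -0.01 over all genes, of which 47.2% were higher). The exception was Nr3c1 (-0.07), the gene of the glucocorticoid receptor itself. Of these 10, 6 had an unadjusted p under 0.05, against 6.91% of all genes, and 0 passed over all genes. In the same arrays Mt1 and Mt2 had differences of 0.06 and 0.09, and that of Slc39a14 was 0.43. Fkbp5, a co-chaperone of steroid receptors, was at 6.31 and 6.46 in the null arrays, against 5.47 and 5.39 in the wild-type arrays. Of 14 measured acute phase genes of the interleukin 6 and Stat3 route, 6 were higher and 8 lower, with a median of -0.03. Socs3, a feedback inhibitor of that route, was at 6.10 and 6.46 in the null arrays, against 6.86 and 6.22 in the wild-type arrays. Both genes were picked from their lists after the values were seen, and whether either route bears on the zinc genes was not tested.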

How the data were processed

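Per the labels' protocols, biotin-labelled total RNA was hybridized to Affymetrix arrays. The authors deposited 1 value per array and row, read here as log2 levels because values lay between 0.218 and 13.9; the log base, background correction and normalization are not given in the sources used here, and no further normalization was applied. Of 41345 rows, 23521 had 1 gene symbol in the platform annotation, 1814 had several and 16010 had none here; the brightest row per symbol gave 22180 genes. No filter on dim rows was used. Chromosomes and names came from RefSeq (GRCm38.p6), which held 21994 of the genes, and promoter windows from the same build.

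Groups were compared with limma 3.58.1 in R 4.3.3 (lmFit and eBayes, all 4 arrays, no covariates), tested on simulated data. P-values are two-sided and Benjamini-Hochberg adjusted over all genes; an exact permutation test of 2 against 2 arrays cannot go below 0.333 and was not used. The number of arrays limits precision, and the labels call the replicates biological without naming litters or days. Replicate numbers did not pair the samples (correlation of deviations -0.035). The 9 genes and all lists were chosen with earlier results of these data known, so no test was made over a list. Named genes were the 9 genes, of the related genes the ZnT gene (Slc30a8) and the ZIP gene (Slc39a6) of smallest p with Mt3, Mt4 and Mtf1, the 5 genes nearest to Mt1, and Ifrd1. Slc30a6 and the markers and list genes named with values were chosen after their values were seen. Alternatives were 3 normalizations, a replicate block, trend and robust eBayes, dim genes left out, X and Y genes left out, mean of rows and leaving out each array.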

Additional observations from a re-analysis of the deposited data

How the results depend on the processing

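With 2 arrays per group, moderate changes were below the reach of the single-gene test. Some large ones, such as that of Ifrd1 (-2.02), did not pass with all arrays as deposited either. No gene of the 9, and no related zinc gene, passed under any of 12 alternatives (0 in each, limma), and the lowest adjusted p of the 9 ranged from 0.473 to 0.891. Over all genes, 1 passed with all arrays, 4 each with quantile normalization, cyclic loess and the replicate block, 5 each with arrays centred on their medians and with trend and robust eBayes, and 0 without dim genes, without X and Y genes and with any array left out (0 to 0). At unadjusted p under 0.05 there was 1 of the 9 genes, Slc39a14, with the replicate block, quantile normalization, cyclic loess and trend and robust eBayes, against 0 with all arrays as deposited, and between 0 and 3 with an array left out. Among the 9 genes, the replicate block changed no call other than that of Slc39a14. Of the 9 genes, 6 were higher in the null with all arrays and between 1 (without Ifrd1 null 2) and 8 (without Ifrd1 null 1) with an array left out, with 3 without wild type 2; the median difference ranged from -0.0943 to 0.265. Without dim genes 4 of 13 related genes were higher, against 8 of 18. Of all 18, 6 were higher with arrays centred on their medians, 9 with quantile normalization and 10 with cyclic loess. The order of arrays shared by 5 of the genes was shared by 3 with cyclic loess. Slc30a2 turned to 0.0247 with quantile normalization and 0.0405 with cyclic loess. With an array left out, signs turned within these ranges: Mt1 -0.12 to 0.23, Mt2 -0.0943 to 0.265, Slc30a2 -0.33 to 0.30, Slc30a5 -0.0363 to 0.14, Slc30a7 -0.0911 to 0.28, Slc39a5 -0.60 to 0.74, Slc39a8 -0.38 to 0.15 and Slc39a10 -0.33 to 0.10. The cause of these changes was not tested beyond the loss of the array itself. Slc39a14 kept its sign throughout, but only the 3 normalizations could have turned it.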
